A study of Mus musculus with 24 samples.

Results

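The cell cycle genes described here are 36 listed genes of DNA replication and mitosis, and 33 of them had a probe among the 16593 genes of the array table. The genes were taken by symbol from a list, and each was read by its brightest probe over all arrays. Mki67, Aurkb and Ccnb1 had no probe in the table used here. By role, the 33 measured genes were 5 regulators of G1, 7 genes of origin licensing and the replicative helicase, 7 genes of DNA synthesis and chromatin copying, 6 genes of mitotic entry, and 8 genes of the spindle checkpoint and mitotic exit.

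RNA from the gonadal fat pad, the liver, the kidney and the aorta (4 tissues) was measured in wild-type (WT) mice and in Glo1+/- mice, which carry 1 knockout allele of Glo1, the gene of the methylglyoxal-detoxifying enzyme glyoxalase 1. All were labelled as C57BL/6J females of 36 weeks on standard chow, with 3 arrays per genotype and tissue and 24 arrays in all. The Glo1+/- line was re-derived by embryo transfer into a WT female. Values were deposited on a log2 scale with a floor near 8. In whole-tissue RNA, fewer cells of a type and less RNA per cell cannot be told apart.

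Cells enter the cycle when D-type cyclins such as cyclin D1 (Ccnd1) and cyclin D2 (Ccnd2) activate CDK4 and CDK6, which inactivates the retinoblastoma protein and frees E2F factors. Inhibitors of the INK4 family, among them p18 (Cdkn2c), oppose that step. E2F targets then supply the MCM helicase and nucleotide synthesis for S phase, and a later wave controlled by the DREAM and MYB-MuvB complexes supplies mitosis. Most cells of adult adipose tissue, liver, kidney and aorta are out of the cycle, whereas thymocytes divide often.

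These waves leave letters in promoters. In the RefSeq promoter table (GRCm38.p6, 250 bases before to 50 after a start site, both strands), 30 of the 36 listed genes had an entry. The E2F motif (TTTCGCGC, TTTGGCGC, TTTCCCGC or TTTGCCGC) was in 5 of 6 licensing and helicase promoters and in 0 of the 14 promoters of mitotic entry and spindle genes, against 2.6% of all 27025 genes with a promoter. The CHR motif (TTTGAA), to which DREAM and MuvB bind, was in 5 of 6 promoters of mitotic entry and 5 of 8 of the spindle group. It was in 1 of 6 of the licensing group, 0 of 7 of the DNA synthesis group, 1 of 3 G1 regulators and 20.2% of all genes. In the DNA synthesis group the E2F motif was in 1 of 7 promoters, and in G1 regulators in 1 of 3. CCAAT was in 24 of 30 member promoters and 41.1% of all. A match is a run of letters and not a bound site.

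The promoters of 6 genes are shown because they carry each pattern in genes the results return to. Mcm5 (chr8:75109309-75109467, plus strand), a helicase subunit, and Mcm6 (chr1:128359706-128359905, minus strand), another, hold E2F letters. Top2a (chr11:99024200-99024389, minus strand), the topoisomerase that untangles chromosomes, Cdc20 (chr4:118437344-118437543, minus strand), the activator of the anaphase-promoting complex, and Ube2c (chr2:164769729-164769928, plus strand), its ubiquitin-conjugating enzyme, hold CHR letters. Cdkn2c (chr4:109666757-109666956, minus strand) holds none of the 3 motifs in this stretch. Each run is given on the strand of the gene, lies outside the annotated gene and covers up to 200 bases before the start site. Capitals mark E2F, CHR or CCAAT letters on either strand, and overlapping matches run together.
Mcm5: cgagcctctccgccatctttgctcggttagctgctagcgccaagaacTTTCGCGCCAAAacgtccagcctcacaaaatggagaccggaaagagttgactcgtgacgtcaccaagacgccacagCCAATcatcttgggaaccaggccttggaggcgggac
Mcm6: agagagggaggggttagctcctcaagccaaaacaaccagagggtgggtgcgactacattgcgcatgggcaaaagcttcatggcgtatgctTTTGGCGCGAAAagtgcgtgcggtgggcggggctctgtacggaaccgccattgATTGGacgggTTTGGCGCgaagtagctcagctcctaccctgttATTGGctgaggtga
Top2a: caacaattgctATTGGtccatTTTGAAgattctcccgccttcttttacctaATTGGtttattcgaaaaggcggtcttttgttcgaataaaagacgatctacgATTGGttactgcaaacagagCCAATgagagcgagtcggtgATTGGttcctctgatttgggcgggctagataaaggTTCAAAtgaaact
Cdc20: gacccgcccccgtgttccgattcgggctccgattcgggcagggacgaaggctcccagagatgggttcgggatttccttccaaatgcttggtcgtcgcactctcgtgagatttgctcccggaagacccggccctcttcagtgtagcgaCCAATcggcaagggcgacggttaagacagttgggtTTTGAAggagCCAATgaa
Ube2c: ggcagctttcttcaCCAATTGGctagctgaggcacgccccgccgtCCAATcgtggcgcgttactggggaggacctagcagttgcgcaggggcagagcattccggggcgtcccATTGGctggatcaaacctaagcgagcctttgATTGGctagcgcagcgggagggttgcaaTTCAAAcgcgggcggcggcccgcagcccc
Cdkn2c: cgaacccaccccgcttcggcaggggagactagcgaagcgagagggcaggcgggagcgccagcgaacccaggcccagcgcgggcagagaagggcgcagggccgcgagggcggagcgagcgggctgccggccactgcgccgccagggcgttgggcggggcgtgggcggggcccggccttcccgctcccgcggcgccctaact

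Several libraries stood apart from their labels. WT Aorta 3 carried thymocyte transcripts: the mean of 17 thymocyte markers was 10.36 there and 8.28 to 8.44 in the other aorta arrays. It is therefore shown apart, and values for aorta rest on 5 arrays unless stated. Glo1+/- Aorta 3 lacked the brown adipocyte signal of the other aorta arrays, with a marker mean of 8.78 against 12.45 to 12.79, and WT Aorta 2 held skeletal muscle transcripts (11.64 against 8.42 to 8.69). Adipocyte transcripts were in all aorta arrays: the mean of 8 adipocyte markers was 11.24 to 12.26 in the 5, against 12.16 to 12.47 in adipose tissue. In liver and kidney it was 8.1 to 8.8. Hepatocyte markers ranged from 8.58 to 11.92 between adipose arrays. Xist was at 8.10 to 8.25 and the Y-linked Eif2s3y at 10.33 to 11.28 in all 24 arrays, which goes against the female label. Glo1 was lower in Glo1+/- in every tissue, by 0.88 log2 units in liver and in kidney, 0.90 in adipose tissue and 0.93 in aorta. WT and Glo1+/- Glo1 values did not overlap in any tissue, and with WT Aorta 3 (11.22) they overlapped in aorta. The fall passed the limma test in liver (adjusted p = 0.00314) and kidney (adjusted p = 0.0223).

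Few cell cycle transcripts were read above the floor in any tissue. With a tissue mean of 9.0 log2 units as the limit, 9 of 33 genes lay above it in adipose tissue, 8 in liver, 7 in kidney and 8 in aorta, against 33.4%, 32.4%, 32.5% and 32.8% of all genes. Ccnd1, Cdkn2c, Mcm4, the single-strand binding subunit Rpa3 and the centromeric histone Cenpa were above it in all 4 tissues. Another 6 genes passed in 1 to 3 tissues, namely Ccnd2, E2f1, Mcm6, the ribonucleotide reductase subunit Rrm1, thymidine kinase Tk1 and thymidylate synthase Tyms. The remaining 22 passed in no tissue.

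The genes at the floor were mostly those of mitosis. All 6 measured genes of mitotic entry, cyclin A2 (Ccna2), cyclin B2 (Ccnb2), the kinases Plk1 and Aurka, the microtubule destabiliser Stmn1 and Top2a, were below the limit in every tissue, and among the 8 spindle genes Cenpa alone passed. In 23 arrays, without WT Aorta 3, 20 genes stayed under 9.0 in each array. Ccna2, Ccnb2, Bub1 and Ube2c did not exceed 8.24 in any of the 24 arrays, WT Aorta 3 included. A probe at the floor gives no level for its transcript. Mcm4 and Tyms were each read above the limit by a single probe, and the other probes of Mcm4 did not exceed 8.25 and those of Tyms 8.53 in the 23 arrays.

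**Figure D1:**
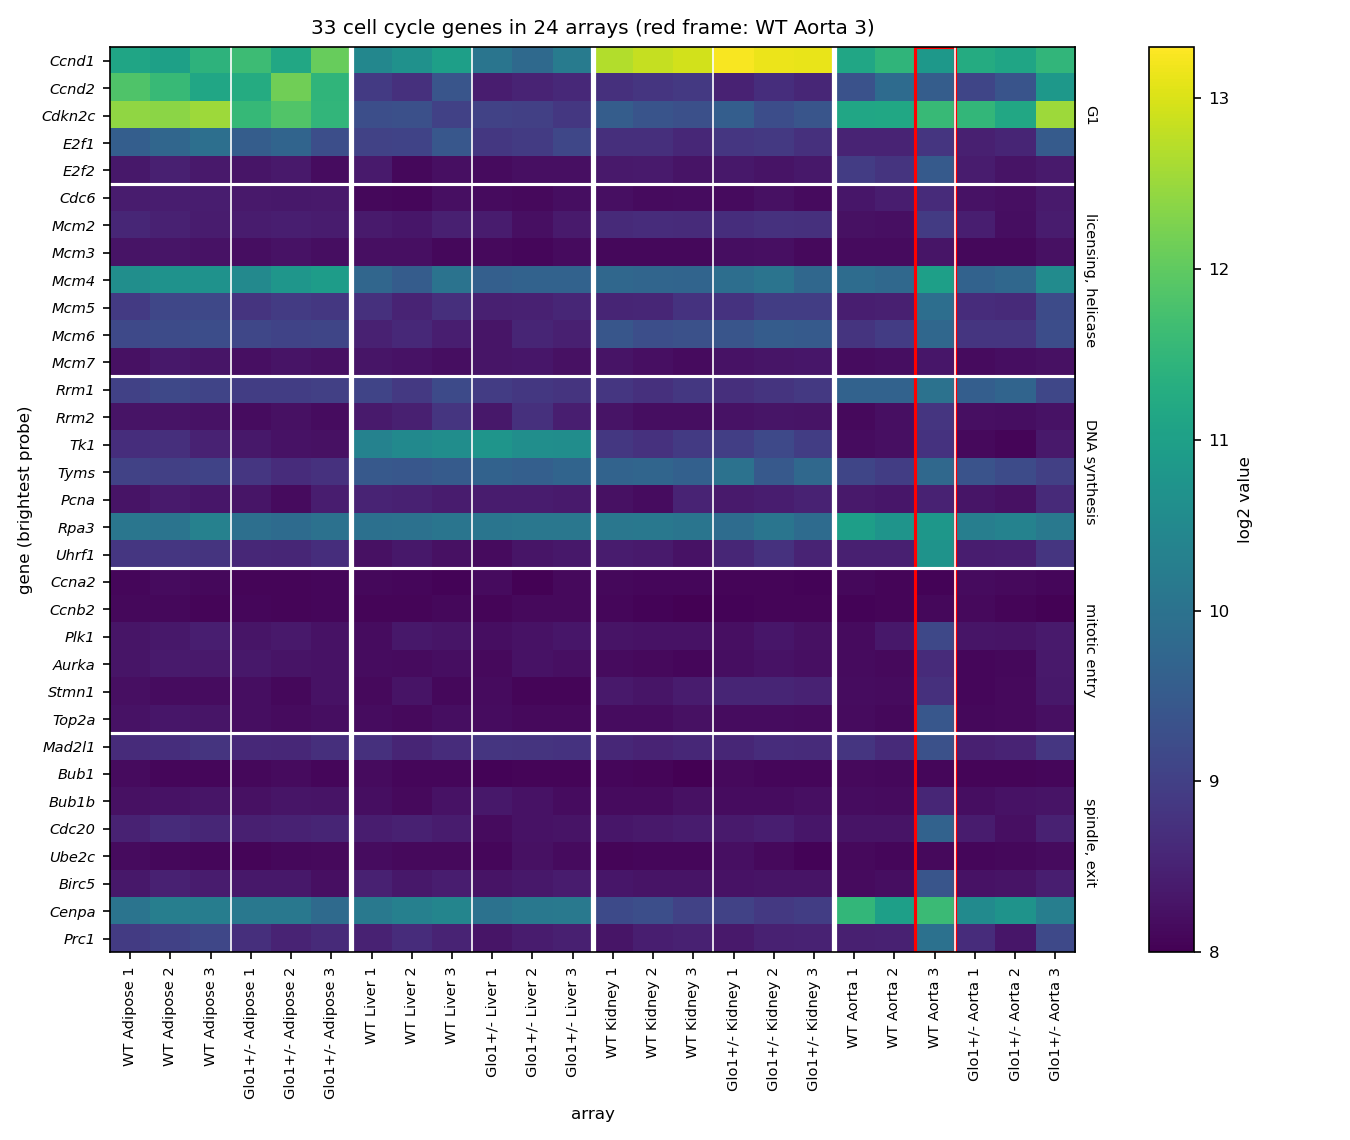
Log2 value of each of the 33 measured cell cycle genes (rows, grouped by role) in each of the 24 arrays (columns, grouped by tissue and genotype); dark cells lie at the floor near 8. Ccnd1, Ccnd2 and Cdkn2c of the G1 group and a few S-phase genes are bright in 2 or more tissues. The mitotic groups are dark except Cenpa, and WT Aorta 3 (red frame) is brighter than its neighbours in the lower rows.

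Tissues differed in which cell cycle genes they expressed. Over 23 arrays, 24 of 33 genes passed the limma F test for any difference between the 4 tissues, beside 58.4% of all genes. Of the 33 genes, 15 had their highest tissue mean in adipose tissue, 8 in liver, 5 in kidney and 5 in aorta. For 22 of the 33 the mean was under 9.0 in every tissue, so these counts rest largely on dim probes. The genes above that limit in their highest tissue were Ccnd2, Cdkn2c, E2f1 and Mcm4 in adipose tissue and Tk1 in liver. In kidney they were Ccnd1, Mcm6 and Tyms, and in aorta Rrm1, Rpa3 and Cenpa. Pairwise, 8 genes passed between liver and kidney (36.1% of all genes), 17 between liver and adipose tissue (44.1%) and 16 between liver and aorta (40.4%). Further, 19 passed between kidney and adipose tissue (40.3%), 13 between kidney and aorta (36.6%) and 17 between adipose tissue and aorta (29.5%). In adipose tissue against aorta, 13 of the 17 were higher in adipose tissue, beside 2774 of the 4900 called among all genes. Of the 13, Mcm2, Mcm3, Mcm5, Tk1, Uhrf1, Aurka, Top2a and Cdc20 had a mean under 9.0 in both tissues. Tissue and array chip were partly confounded, since all adipose arrays sat on the first chip and all aorta arrays on the third. With chip as a block, 0 genes were called between adipose tissue and aorta (0.157% of all genes), 5 between liver and aorta (18.2%), 11 between liver and adipose tissue (30.9%) and 10 between kidney and adipose tissue (19.5%).

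The 2 D-type cyclins had different tissue orders. Ccnd1 was highest in kidney (mean 13), at 12.70, 12.84 and 12.94 in WT and 13.25, 13.14 and 13.12 in Glo1+/-. It was 3.01-fold above adipose tissue (difference 1.59 ± 0.13, adjusted p = 2.39e-09). Adipose tissue (mean 11.41) and aorta (11.29) did not pass the test against each other, and liver was lowest at 10.37. Ccnd2 was highest in adipose tissue, where the WT arrays read 11.83, 11.56 and 11.13 and the Glo1+/- arrays 11.26, 12.15 and 11.46. It was 3.70-fold below that in aorta (mean 9.70) and lay at 8.77 in liver and 8.70 in kidney. Liver and kidney did not pass against each other for Ccnd2 (adjusted p = 0.883).

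Cdkn2c was bright in adipose tissue and aorta and dim in liver and kidney. Its mean was 12.03 in adipose tissue, 11.50 in aorta, 9.41 in kidney and 9.09 in liver. The aorta mean includes Glo1+/- Aorta 3, at 12.52 against 11.14 to 11.52 in the other 4 arrays. The part of adipocyte transcripts in the aorta values of Cdkn2c and Ccnd2 was not tested. Adipose tissue exceeded aorta by 0.59 ± 0.16 (adjusted p = 0.00863), and aorta exceeded kidney by 2.03 ± 0.16, or 4.10-fold (adjusted p = 1.12e-09). The second Cdkn2c probe gave tissue means of 9.49, 9.61, 8.43 and 8.22 in the order adipose tissue, aorta, kidney and liver, so the higher and lower pairs of tissues were the same and the order within the upper pair was not. E2f1, an activator of S-phase genes, was highest in adipose tissue (9.64) and lay below the limit in kidney (8.74) and aorta (8.72).

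Among the S-phase genes Tk1, of thymidine salvage, had the widest range. It read 10.34, 10.51 and 10.60 in WT liver and 10.76, 10.62 and 10.59 in Glo1+/- liver, against 8.75 to 9.18 in kidney, 8.24 to 8.72 in adipose tissue and 8.08 to 8.35 in aorta. Liver exceeded kidney by 1.63 ± 0.07, or 3.10-fold (adjusted p = 1.86e-14), and no other array reached the liver range. Its other 2 probes stayed under 9.0 in every array, with their highest tissue means in liver (8.79 and 8.50). Tyms, the de novo counterpart, was highest in kidney (9.72) and liver (9.57), whose difference did not pass (adjusted p = 0.183). Rrm1 was highest in aorta at 9.56, 0.55 ± 0.08 above adipose tissue (adjusted p = 6.65e-05).

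Within the MCM helicase, Mcm4 was highest in adipose tissue, 0.79 ± 0.13 above aorta (adjusted p = 0.000131). Mcm6 was highest in kidney, where its means ran from 9.41 down to 9.16 in adipose tissue, 8.92 in aorta and 8.47 in liver, and each step passed the test. Mcm2 was likewise highest in kidney, at 8.69. Mcm3 and Mcm7 stayed under 8.4 in every array. Cenpa, which marks centromeres, was highest in aorta (10.80), followed by liver (10.19) and adipose tissue (10.10), and lowest in kidney (9.07). Liver and adipose tissue did not pass against each other for Cenpa (adjusted p = 0.510). Kidney lay 1.03 ± 0.10 below adipose tissue, or 2.04-fold (adjusted p = 1.72e-08).

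**Figure D2:**
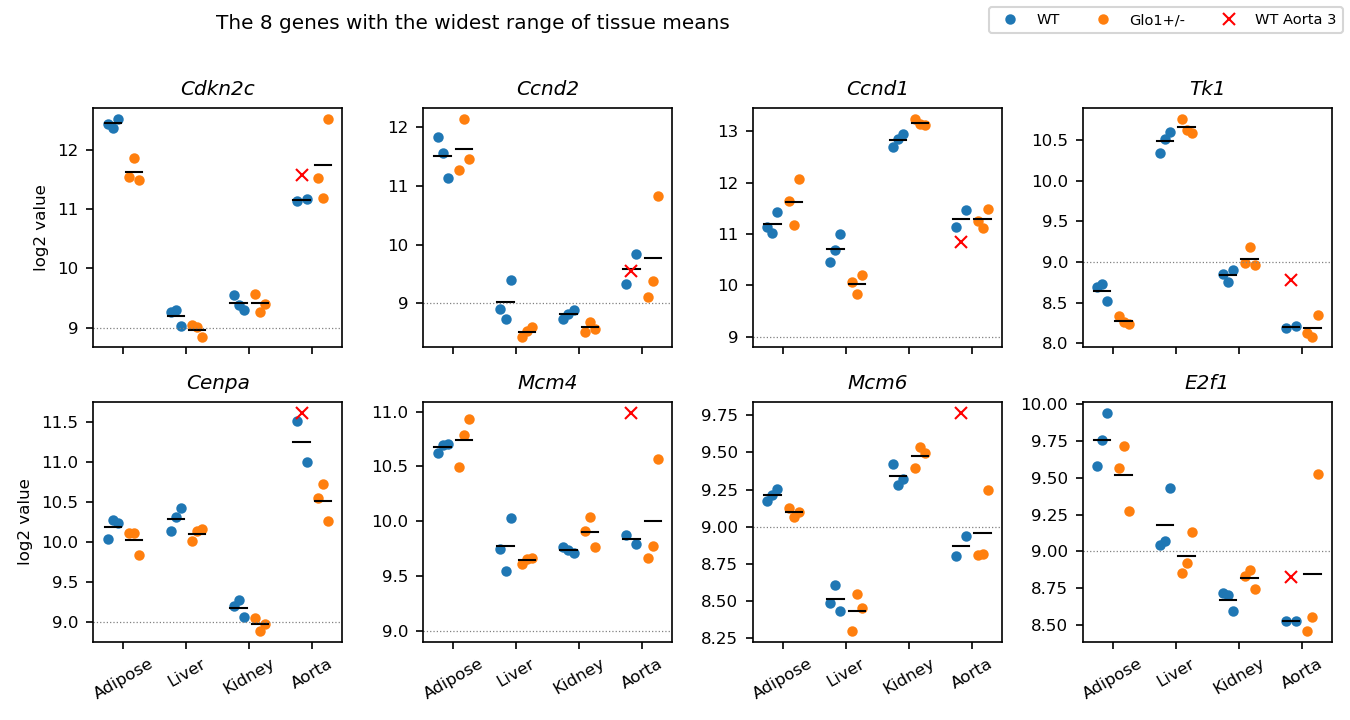
Log2 value in each array (points; WT blue, Glo1+/- orange; black bars are group means; the red cross is WT Aorta 3, which is in no mean; the dotted line is 9.0) for the 8 genes with the widest range of tissue means. Panels differ in their vertical scale. Ccnd1 peaks in kidney, Ccnd2 and Cdkn2c in adipose tissue, Tk1 in liver and Cenpa in aorta.

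The effect of losing 1 Glo1 allele was tested in each tissue on its own. In liver, 1 of 33 cell cycle genes was called by limma at an adjusted p under 0.05, beside 0.735% of all genes. That gene was Ccnd1, which read 10.44, 10.68 and 11 in the WT arrays and 10.05, 9.82 and 10.20 in Glo1+/-. All 3 Glo1+/- values were below all WT values, and the mean fell by 0.68 ± 0.14 (adjusted p = 0.0452). Its other 2 probes gave -0.63 ± 0.15 (adjusted p = 0.0825) and -0.41 ± 0.12 (adjusted p = 0.174). Only WT Liver 3 shared a chip with the Glo1+/- liver arrays, and within that chip the difference was -0.97. The call was lost when WT Liver 2 or any 1 of the Glo1+/- arrays was left out, with adjusted p from 0.101 to 0.283, when the variance trend was dropped (0.172), with the filter on dim probes (0.0627) and with quantile normalization (0.0569).

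Ccnd2 in liver was 8.91, 8.74 and 9.40 in WT and 8.43, 8.52 and 8.60 in Glo1+/-. These ranges did not overlap, the difference was -0.50 ± 0.14, and it did not pass (adjusted p = 0.147). With chip as a block it was -0.88, which sets WT Liver 3 alone, the highest WT value, against the 3 Glo1+/- arrays, in a fit that called 5.75% of all genes. Cdc20 read 8.42, 8.49 and 8.40 in WT and 8.15, 8.25 and 8.29 in Glo1+/- (adjusted p = 0.224), so that the groups did not overlap although every value was under 9.0. Its other 3 probes gave -0.01, 0.03 and -0.02. The marker means of 3 cell types were lower in Glo1+/- liver without overlap. The mean of 10 hepatocyte markers was 12.88 to 12.95 in WT and 12.79 to 12.85 in Glo1+/-. Among them the Alb probe read 9.63, 9.86 and 9.55 in WT and 9.07, 8.96 and 9.02 in Glo1+/-. The brighter Apoa2, Ttr, Cyp3a11 and Cps1 overlapped between the groups. The mean of 8 endothelial markers was 9.05 to 9.22 in WT and 8.86 in each Glo1+/- liver, and that of 8 smooth muscle markers was 8.54 to 8.70 against 8.35 to 8.39. Their part in the Ccnd1 result was not tested. Over the 33 genes in liver, 22 were lower and 11 higher in Glo1+/-, beside 44% of all genes higher, and 8 did not overlap, beside 18% of all genes. Of those, 6 were lower and 2 higher, beside 10.9% and 7.18% of all genes.

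In adipose tissue none of the 33 cell cycle genes was called by limma, beside 0.00603% of all genes, and 8 had an unadjusted p under 0.05, beside 12.3%. The means of 29 genes were lower in Glo1+/-. The median difference was -0.07 over the 33 genes and 0.0026 over all genes. In 12 genes the WT and Glo1+/- arrays did not overlap, beside 17.9% of all genes. All 12 were lower in Glo1+/-, beside 8.94% of all genes in that direction and 8.96% in the other. Most of these differences were small: the range over the 33 genes was -0.81 to 0.44, and 24 of the 33 had an adipose mean under 9.0.

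Cdkn2c was the largest of them. It read 12.43, 12.37 and 12.52 in WT and 11.54, 11.85 and 11.49 in Glo1+/- adipose tissue, with no overlap and a difference of -0.81 ± 0.12 (adjusted p = 0.137). Its second probe gave -0.50 ± 0.13 (adjusted p = 0.298). Tk1 read 8.70, 8.72 and 8.51 in WT and 8.34, 8.26 and 8.24 in Glo1+/- (-0.37 ± 0.07, adjusted p = 0.243), and its other 2 probes gave -0.04 ± 0.04 and -0.02 ± 0.02. The cytokinesis factor Prc1 read 8.92, 9.02 and 9.12 in WT and 8.72, 8.52 and 8.63 in Glo1+/- (-0.40 ± 0.09, adjusted p = 0.260). None of the 3 overlapped between genotypes, and none passed the test.

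Transcripts of other tissues differed widely between the same arrays. The hepatocyte marker mean was 11.92, 11.78 and 9.86 in WT and 10.71, 9.61 and 8.58 in Glo1+/- adipose tissue, so that the groups overlapped. The kidney tubule mean was 10.20, 8.67 and 8.28 in WT and 11.14, 8.29 and 9.05 in Glo1+/-. The epididymis mean was 12.03 in Glo1+/- Adipose 3 and 8.12 to 8.32 in the other adipose arrays. The part of these transcripts in the differences above was not tested.

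In kidney none of the 33 genes was called by limma, beside 0.476% of all genes, and 8 had an unadjusted p under 0.05, beside 10.4%. Of the 33, 23 were higher in Glo1+/- and 10 lower, beside 48.8% of all genes higher. Only Glo1+/- Kidney 1 shared a chip with the 3 WT kidney arrays, and the other 2 Glo1+/- arrays were on the third chip. With chip as a block, which rests on that 1 Glo1+/- array, 21 were higher and 12 lower. In 13 genes the groups did not overlap, beside 16.3% of all genes. Of those, 9 were higher and 4 lower, beside 7.43% and 8.91% of all genes. Ccnd1 had the smallest p, with the values given above, a difference of 0.34 ± 0.08 and no overlap (adjusted p = 0.132). Its other 2 probes gave 0.19 ± 0.09 (adjusted p = 0.538), with overlap between the groups, and 0.16 ± 0.12 (adjusted p = 0.708). Uhrf1, which carries DNA methylation through replication, read 8.40, 8.38 and 8.25 in WT and 8.58, 8.75 and 8.54 in Glo1+/- (0.28 ± 0.07, adjusted p = 0.181). Mcm5 read 8.56, 8.56 and 8.77 in WT and 8.78, 8.95 and 8.96 in Glo1+/- (0.27 ± 0.08, adjusted p = 0.265). Uhrf1 and Mcm5 did not overlap between genotypes. With chip as a block the differences were 0.42 for Ccnd1, 0.23 for Uhrf1 and 0.15 for Mcm5. The second Uhrf1 probe gave 0.01 ± 0.03. Both stayed below 9.0 in every kidney array. Markers of other cell types also differed in kidney. The mean of 8 macrophage markers was 8.89 to 9.01 in WT and 8.82 to 8.87 in Glo1+/-, and that of 8 smooth muscle markers was 9.16 to 9.37 against 9.0 to 9.15. The hepatocyte mean was 10.21 in WT Kidney 1, against 9.0 and 8.80 in the other WT arrays, and the brown adipocyte mean was 9.64 in WT Kidney 2. Their part in the kidney values was not tested.

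In aorta none of the 33 genes was called by limma, beside 0% of all genes, on 2 WT and 3 Glo1+/- arrays, and 3 had an unadjusted p under 0.05, beside 3.54%. E2f2, a relative of E2f1, read 8.95 and 8.80 in WT and 8.40, 8.27 and 8.38 in Glo1+/- (-0.53 ± 0.12). Rpa3 read 10.97 and 10.74 in WT and 10.28, 10.34 and 10.15 in Glo1+/- (-0.60 ± 0.18). Cenpa read 11.51 and 10.99 in WT and 10.54, 10.73 and 10.26 in Glo1+/- (-0.74 ± 0.24). Each had an adjusted p of 0.983 and no overlap, and a second E2f2 probe gave -0.53 ± 0.16 and the third 0.05 ± 0.04. Cell-type markers separated the same arrays: the mean of 8 macrophage markers was 10.17 and 10.03 in WT and 10.57, 10.25 and 11.68 in Glo1+/-, and that of 8 smooth muscle markers was 10.63 and 11.11 against 10.61, 10.61 and 9.45. Their part in the aorta values was not tested. In 8 of the 33 genes the groups did not overlap, beside 21.2% of all genes, 4 of them lower (10.5%) and 4 higher (10.7%). With WT Aorta 3 included, none was called and 4 had an unadjusted p under 0.05, beside 3.68%. The adjusted p was 0.948 for each of the 3. Then 4 genes did not overlap, beside 10% of all genes, all 4 of them lower in Glo1+/-, beside 4.6%. The direction over the list depended on 2 arrays. Without WT Aorta 3, 24 of 33 genes were higher in Glo1+/-, beside 53.3% of all genes. With all 6 arrays 26 were lower. Without both WT Aorta 3 and Glo1+/- Aorta 3, 13 were higher and 20 lower, beside 49.7% of all genes higher.

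**Figure D3:**
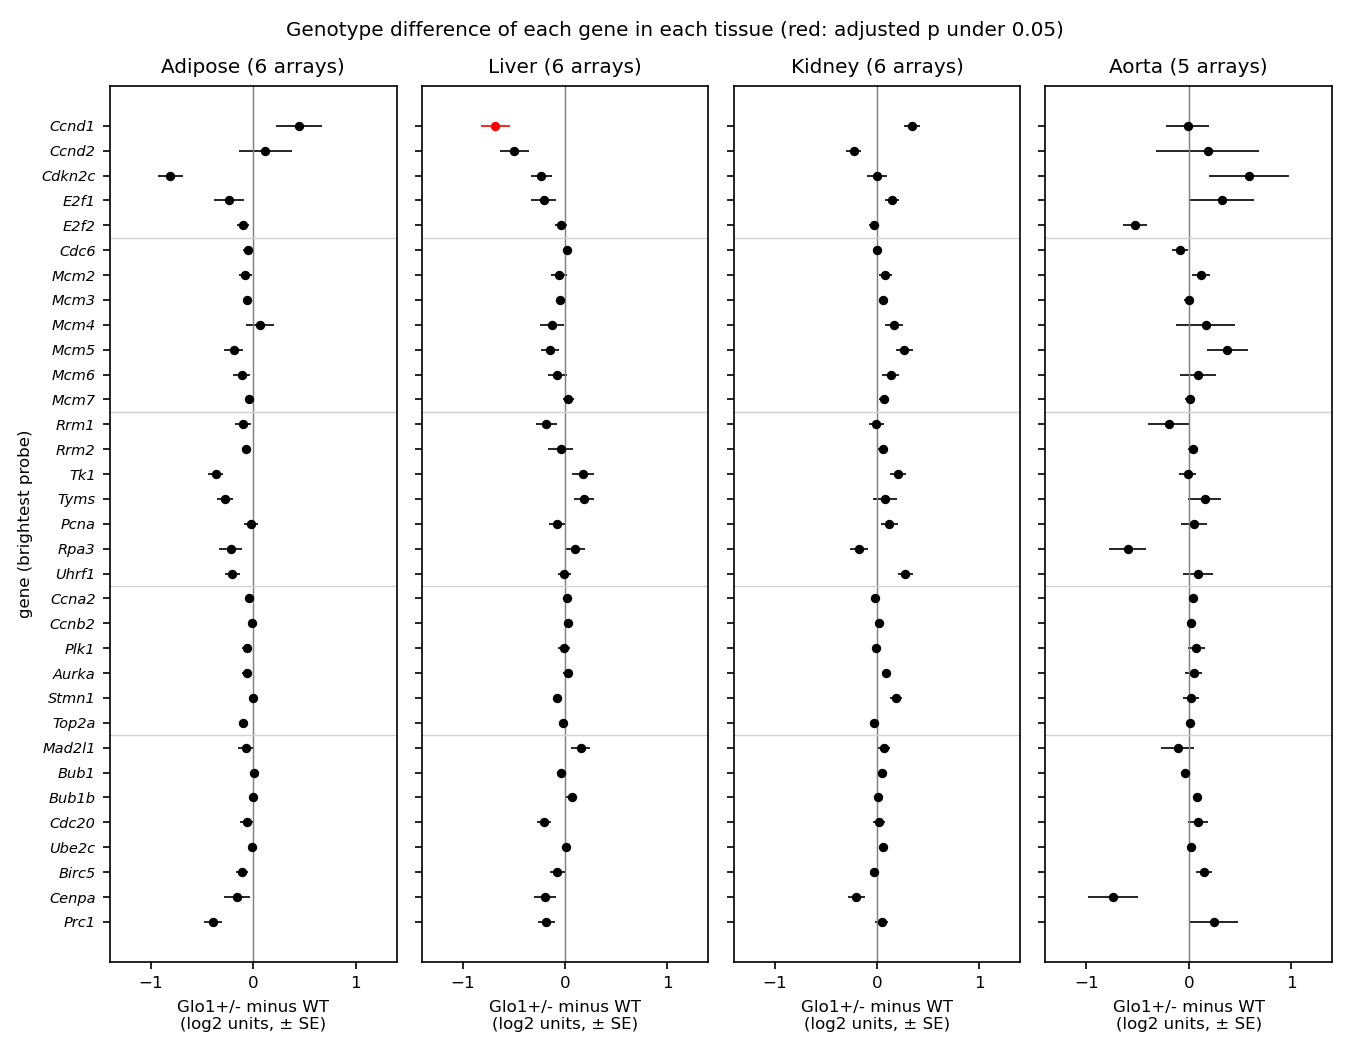
Difference Glo1+/- minus WT in log2 units (points) with its limma standard error (bars) for each of the 33 genes in each tissue; aorta is without WT Aorta 3. Ccnd1 in liver (red) is the single call, and most genes of the mitotic groups lie close to 0.

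Averaged over the 4 tissues in 23 arrays, 2 of 33 genes were called, beside 0.615% of all genes. This fit took the 23 arrays as independent, although tissues of 1 mouse may be among them. E2f2 fell by 0.17 ± 0.03 (adjusted p = 0.0181) and Cenpa fell by 0.32 ± 0.07 (adjusted p = 0.0422). The E2f2 probe was under 9.0 in each of the 23 arrays, and its average rests mostly on aorta, with 2 WT arrays. Rpa3 was lower by the same fit (-0.23 ± 0.05) and just missed (adjusted p = 0.0502). Cenpa was lower in the Glo1+/- mean of each tissue: 10.18 against 10.02 in adipose tissue, 10.29 against 10.10 in liver, 9.17 against 8.97 in kidney and 11.25 against 10.51 in aorta. Both calls were lost with chip as a block (adjusted p = 0.0993 for E2f2 and 0.102 for Cenpa). With the replicate number as a block the adjusted p was 0.0275 for E2f2, and the Cenpa call was lost (0.0651). Both were also lost without the 3 adipose arrays with kidney tubule or epididymal transcripts, WT Adipose 1 and Glo1+/- Adipose 1 and 3 (0.127 and 0.143), and that of E2f2 with all 24 arrays (0.102). Whether the genotype effect differed between tissues was tested with an F test, and 1 gene passed, E2f2 (adjusted p = 0.0419), beside 0.428% of all genes. Its differences were -0.10 in adipose tissue, -0.04 in liver, -0.03 in kidney and -0.53 in aorta. This call was lost in each of 4 alternatives: with the replicate number as a block the adjusted p was 0.0674, with all 24 arrays 0.0887, with chip as a block 0.0726 and without those 3 adipose arrays 0.0577. Ccnd1, which was lower in liver and higher in kidney, did not pass (adjusted p = 0.130).

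WT Aorta 3 read many replication and mitosis genes above the floor. In E2f2, Uhrf1, Plk1, Top2a, Mad2l1, Cdc20 and Birc5 it was the single array of 24 at 9.0 or more. It was the highest of the 6 aorta arrays for 23 of 33 cell cycle genes, beside 13.1% of all genes. The other aorta arrays were highest for 0 to 6 of them. For 20 of them it exceeded every other array of the series, beside 3.46% of all genes. In 3 genes it was over 1.0 log2 unit above the highest other aorta array, beside 0.428% of all genes. The list was chosen with results for this array known, and a single array allows no test.

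The 3 genes came from different roles. Uhrf1 was 10.72 in WT Aorta 3 and 8.41 to 8.81 in the other 5 aorta arrays. Top2a, whose promoter holds 2 CHR matches, was 9.44 against 8.10 to 8.21. Cdc20 was 9.67 against 8.22 to 8.48. The apoptosis inhibitor and chromosomal passenger Birc5 was 9.41 against 8.15 to 8.45, Prc1 9.97 against 8.32 to 9.17 and Plk1 9.15 against 8.16 to 8.39. Mcm5 was 9.92 against 8.44 to 9.21, and the ribonucleotide reductase subunit Rrm2 8.82 against 8.14 to 8.25. These 8 genes were chosen for the size of that gap. The second Uhrf1 probe did not show this, at 8.10 in WT Aorta 3. All 3 Birc5 probes, all 4 Cdc20 probes and both Rrm2 probes had their highest aorta value there, the dimmer Birc5 probes at 9.10 and 8.89 and the dimmer Cdc20 probes at 8.71, 8.88 and 8.31.

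By role, WT Aorta 3 was highest for 7 of 7 licensing and helicase genes, 5 of 7 of DNA synthesis, 4 of 6 of mitotic entry, 6 of 8 spindle genes and 1 of 5 G1 regulators. The G1 exceptions were Ccnd1, which was lowest there (10.83 against 11.12 to 11.48), and Ccnd2, Cdkn2c and E2f1, each within the range of the others. Their highest aorta array was Glo1+/- Aorta 3. The other genes not highest in WT Aorta 3 were Ccna2, Ccnb2, Bub1 and Ube2c, whose probes stayed at the floor throughout, and Pcna and Rpa3. The Ube2c promoter shown above carries CHR and CCAAT letters as those of Top2a and Cdc20 do.

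In the same array the thymocyte markers Cd8b1, Cd3d and Rag1 read 13.69, 12.02 and 11.37, and 12 of 17 markers were at 9.0 or more, against 1 or 2 of 17 in the other aorta arrays. The markers under 9.0 there were Cd4 (8.94), Ptcra (8.47), Rag2 (8.18), Cd8a (8.09) and Ccr9 (8.08). Of the 17 markers, 14 were above the highest other aorta array, all but Cd8a, Ptcra and Ccr9. Ptcra was 8.53 in WT Aorta 1. The mean of 6 B cell markers, 8.45, lay within the range of the others (8.29 to 8.59). The part of thymocyte RNA in these values was not tested.

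**Figure D4:**
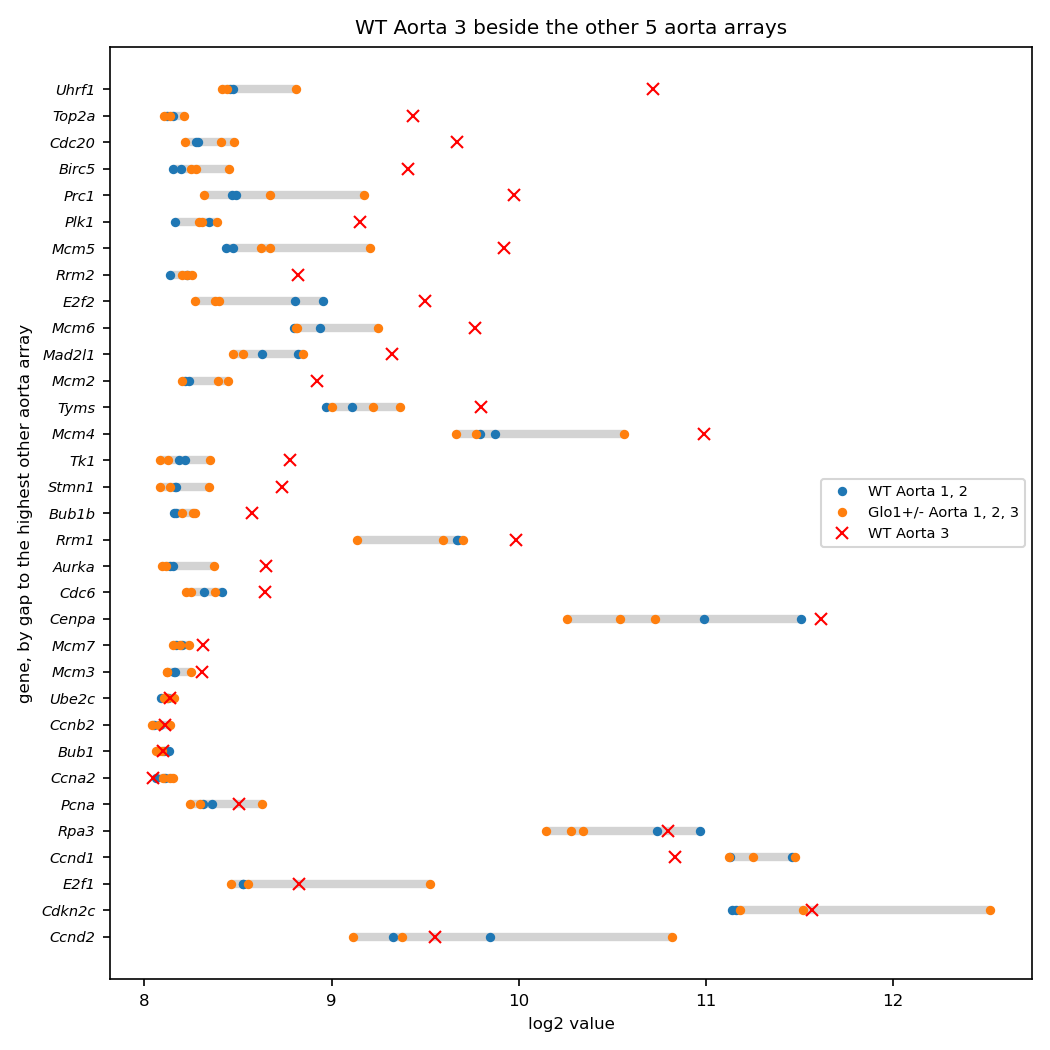
Log2 value of each gene in WT Aorta 3 (red cross) and in the other 5 aorta arrays (points; grey bars span them), ordered by the gap between WT Aorta 3 and the highest other array. The cross stands clear of the bar for the upper rows, from Uhrf1 at 10.72 down, and within or below it for the lowest 10 rows.

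Glo1+/- Aorta 3 differed from the other aorta arrays in another set. Ccnd2 was 10.82 against 9.11 to 9.84 in the other 4 arrays, Cdkn2c 12.52 against 11.14 to 11.52 and E2f1 9.53 against 8.46 to 8.55. Of 11 cell cycle genes whose adipose mean and 4-array aorta mean differed by over 0.3, all 11 were nearer to adipose tissue in this array, beside 82.1% of all genes that differed so. Without it and WT Aorta 3, 2 genes were called in aorta by limma on 2 arrays per genotype, beside 1.65% of all genes. They were E2f2 (adjusted p = 0.0498) and Rpa3 (adjusted p = 0.0408).

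A wider list of 123 cell cycle genes, of which 107 had a probe, gave 1 call in the 4 genotype comparisons, in kidney, beside the 0.476% of all genes called there. The kinetochore subunit Spc25 rose in Glo1+/- kidney, from 9.14, 9.0 and 9.15 to 9.88, 9.48 and 9.63 (0.56 ± 0.10, adjusted p = 0.0342). No WT value reached the Glo1+/- range. With chip as a block the difference was 0.78, which sets Glo1+/- Kidney 1 alone, the highest Glo1+/- value, against the 3 WT arrays. The call was lost without a variance trend (0.120), with the filter on dim probes (0.0540), and when WT Kidney 1 or 2 or Glo1+/- Kidney 1 or 3 was left out (0.0682 to 0.153). Also in kidney, the licensing factor Cdt1 (0.30 ± 0.08, adjusted p = 0.163) and cyclin D3, Ccnd3 (0.31 ± 0.09, adjusted p = 0.213), had the next smallest p. In adipose tissue the smallest p belonged to the mitotic kinase Pbk (-0.21 ± 0.06, adjusted p = 0.305), the antiproliferative gene Btg1 (0.34 ± 0.10) and the INK4 inhibitor Cdkn2b (-0.33 ± 0.10). In liver they were Pbk, the DNA polymerase delta subunit Pold1 (-0.29 ± 0.09, adjusted p = 0.230) and Btg1. In aorta they were Aspm, the inhibitor Cdkn1c (0.43 ± 0.18) and Dut, each at an adjusted p of 0.983.

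The wider list was also set out by role. WT Aorta 3 was the highest of 6 for 23 of 37 other mitosis genes, 18 of 31 other replication genes, 6 of 18 other cyclins and kinases, 4 of 10 transcription factors and 3 of 11 inhibitors and Rb family genes, beside the 13.1% of all genes given above. Pbk (9.79 against 8.14 to 8.47) and Cdca3 (9.80 against 8.24 to 8.54) were the 2 genes over 1.0 unit above the rest, and both were named after their values were seen. CHR letters were in 26 of 35 promoters of the other mitosis genes and 5 of 28 of the other replication genes. E2F letters were in 2 of 35 and 9 of 28.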

How the data were processed

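Values were deposited on a log2 scale, and per the submitters' processing notes the authors made them with lumi 2.32.0 from Illumina bead arrays. How background was corrected, signals transformed and arrays normalized is not given in the sources used here. A variance-stabilised scale close to log2 would understate changes of dim probes. No step was applied to them before testing. Values ran from 7.96 to 15.38 and array medians from 8.22 to 8.25; the number of arrays limits the precision.

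A gene was read by the probe with the highest mean over 24 arrays. limma 3.58.1 in R 4.3.3 (lmFit, eBayes with a trend, 2-sided) was fitted to all 25697 probes, with Benjamini-Hochberg adjustment over them and calls at an adjusted p under 0.05. The method was tested on simulated data. Genotype was fitted per tissue, and tissues over 23 arrays. Aorta fits leave out WT Aorta 3, and fits with it stand beside them. Errors after ± are standard errors. The design text gives 3 mice per group, and no label ties arrays of different tissues to 1 animal. Fits across tissues therefore hold no term for the animal and count each array as a separate replicate. Where tissues came from the same mouse, their standard errors and p-values do not account for it. With 3 arrays on each side, the smallest p of an exact permutation test is 0.1.

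Members and lists were chosen with earlier results of these data known. All members are counted. Named with values are those called for genotype, the 3 with the smallest genotype p per tissue, the 8 with the widest tissue range, and the 8 with the largest gap of WT Aorta 3 over the other aorta arrays. Other members are given by range, count or tissue mean; the tests between tissues for Tyms and Rrm1 were picked after their values were seen. In the wider list, called genes and the 3 with the smallest p per tissue are named. Same-numbered WT and Glo1+/- arrays deviated together in adipose tissue (correlations 0.66, 0.16 and 0.33). Adipose arrays of different number gave -0.56 to 0.29, so that the ranges overlapped, and the replicate number was tried as a block. Alternatives left out single arrays, dropped the variance trend, filtered dim probes, added quantile normalization, and used the array chip as a block.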

Additional observations from a re-analysis of the deposited data

Results flagged for a closer look

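The genotype effect on E2f2 differed between tissues by the F test of the interaction (adjusted p = 0.0419, limma, 23 arrays), with the difference in aorta larger in size than in the other tissues. Its probe was under 9.0 in each of those arrays. The call was lost with the replicate number as a block (0.0674), with chip as a block (0.0726), with all 24 arrays (0.0887) and without 3 adipose arrays (0.0577). Uhrf1 in WT Aorta 3 exceeded the highest other aorta array by 1.91 log2 units, Top2a by 1.23 and Cdc20 by 1.20, in an array that the comparisons leave out.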

How the results depend on the processing

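Depth is not a feature of these arrays; signal over the floor limits them, since 20 of 33 genes stayed under 9.0 in each of 23 arrays. In the liver genotype comparison 1 gene was called, against 0 without a variance trend, with the filter on dim probes or with quantile normalization. It was 3 with chip as a block and 4 within the second chip, where 5.75% and 7.08% of all genes were called and both rest on 1 WT array, and 0 to 1 when single arrays were left out. In adipose tissue the count was 0, and 0 to 1 when single arrays were left out (Tk1 without WT Adipose 3, beside 0.80% of all genes). In aorta it was 0, and 0 to 2 when single arrays were left out (2 without Glo1+/- Aorta 3, beside 1.65% of all genes). For the average over tissues, 2 genes (0.615% of all genes) became 1 with all 24 arrays (0.33%). They became 0 with chip as a block (0.512%) and 0 without 3 adipose arrays (0.325%). For the difference between tissues, 1 (0.428% of all genes) became 0 with all 24 arrays (0.301%), with chip as a block (0.524%) and without 3 adipose arrays (0.35%). It became 2 without a trend (0.717%) and 5 without Glo1+/- Aorta 3 (2.22%). Between liver and kidney, 8 became 14 without Glo1+/- Aorta 3, while the share of all genes went from 36.1% to 40.1%. Between liver and adipose tissue, 17 (44.1% of all genes) became 11 with all 24 arrays (43.8%) and 11 with chip as a block (30.9%). With chip as a block, liver against aorta went from 16 (40.4%) to 5 (18.2%). Kidney against adipose tissue went from 19 (40.3%) to 10 (19.5%) in that fit. Adipose tissue against aorta went from 17 (29.5%) to 9 with all 24 arrays (29.9%) and 0 with chip as a block (0.157%). The cause was not tested. Leaving out the 3 adipose arrays or Glo1+/- Aorta 3 in fits across tissues, and both unusual aorta arrays in the count of directions, was chosen after seeing the data. Among 132 alternatives for 12 single genotype differences, 0 changed sign. Where the groups do not overlap, leaving out 1 array cannot change the sign, and dropping the variance trend leaves the difference as it was. The count is therefore no test of these differences.

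With the replicate number as a block, liver gave 2 calls (Ccnd1 and Ccnd2, beside 1.24% of all genes), aorta 3 (Cenpa, E2f2 and Rpa3, beside 4.07%, with Glo1+/- Aorta 3 having no same-numbered WT array in the fit), the average over tissues 1 (E2f2, beside 0.603%) and the difference between tissues 0 (0.362%). The block changed no call of these genes in adipose tissue. In liver, kidney and aorta the same-numbered arrays did not deviate together throughout (correlations from -0.11 to 0.21), so the numbers are shared labels there.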
